A study of Mus musculus with 8 samples.

Results

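129S1/SvImJ is an inbred laboratory strain of mouse, and its striatum was compared with that of 7 other inbred strains by single-nucleus RNA sequencing. The nuclei were chosen by the strain that the authors' table assigns to each annotated nucleus and by its cluster. In the 5 clusters compared, 5880 nuclei belonged to 129S1/SvImJ and 42170 to the other strains. Of the 129S1/SvImJ nuclei, 1954 were Drd1+ neurons, 1558 Drd2+ neurons, 1594 oligodendrocytes, 454 astrocytes and 320 macrophages. All 18 annotated clusters held 55672 nuclei, of which 6618 came from 129S1/SvImJ. The other strains were A/J, C57BL/6, NOD/ShiLtJ, NZO/HlLtJ, CAST/EiJ, PWK/PhJ and WSB/EiJ. The labels spell a pair of these as C57BL/6J and NZO/H1LtJ, where the deposited table has C57BL/6NJ and NZO/HlLtJ. Each of 4 batches held 1 mouse of every strain, so that 4 mice of 129S1/SvImJ stood against 28 others. The mice were 12 weeks old, the labels give 4 male and 4 female mice in each batch, and no treatment or engineered allele is named for any group. Frozen striata were made into nuclei, the 8 preparations of a batch were mixed before loading, and each nucleus was later assigned to a strain from its genotype. The nuclei of 1 mouse in 1 cluster were summed into 1 library, and each value below is CPM, the counts of a gene per 1000000 counts of the genes tested in that cluster, scaled by TMM. Marker sums and values of pooled nuclei are CPM of all counts instead, unscaled. Errors are SD over mice unless named otherwise.

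The striatum is built mainly from inhibitory projection neurons. Those with the dopamine receptor Drd1 form the direct pathway to the basal ganglia output, and those with Drd2 form the indirect pathway. Oligodendrocytes wrap axons in myelin, astrocytes take up released glutamate through the transporters Slc1a3 (GLAST) and Slc1a2 (GLT-1), and most macrophages of the brain tissue are microglia, its resident immune cells. Mice of an inbred strain are nearly identical in genotype. A/J, C57BL/6, NOD/ShiLtJ and NZO/HlLtJ are, like 129S1/SvImJ, classical laboratory strains, while WSB/EiJ, PWK/PhJ and CAST/EiJ were derived more recently from wild mice of 3 subspecies. The 8 strains are the founders of the Collaborative Cross, a panel of mapping strains, and many mutant mice were made in embryonic stem cells of 129 strains.

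The cluster names held in the 129S1/SvImJ nuclei. Summed over 8 markers each, Drd1+ neuron markers were at 1074 CPM in Drd1+ neurons and 81.6 in Drd2+ neurons, and Drd2+ neuron markers at 2538 CPM in Drd2+ neurons and 120.4 in Drd1+ neurons (mean over the 4 mice, CPM of all counts). Macrophage markers, such as Csf1r, Cx3cr1 and P2ry12, were at 12151 CPM in 129S1/SvImJ macrophages and 12688 CPM in those of the other strains. Totals per 129S1/SvImJ library ran from 2440949 to 4849824 counts in Drd1+ neurons but from 102037 to 145405 in macrophages. Nuclei, UMIs, detected genes, mitochondrial counts and doublets gave 16 measures, and no measure separated the strain after adjustment (exact permutation test, two-sided, smallest adjusted p = 0.0977, for the median UMIs of astrocytes). Those medians averaged 2388 in 129S1/SvImJ and 2133 in the others (exact permutation p = 0.0061, unadjusted). Median UMIs were higher in 129S1/SvImJ in each of the 5 clusters, by 0.065 to 0.174 log2 units. None of the 18 cluster shares separated the strain after adjustment (smallest adjusted p = 0.692, exact permutation test). Macrophages made up 4.92% ± 0.722 of the 129S1/SvImJ nuclei and 4.70% ± 1.17 of the others. Y-linked transcripts were above 10 CPM in 2 of the 4 129S1/SvImJ mice and in 18 of all 32, where the labels give 16 males. A barcode sequence shared with another batch occurred in 5.47% of annotated nuclei, 401 of them from 129S1/SvImJ.

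Nuclear RNA of 129S1/SvImJ differed from the mean of the other strains in every one of the 5 clusters. In Drd1+ neurons 1652 of 13431 genes passed an adjusted p under 0.05 (12.3%), 1037 higher (7.72%) and 615 lower (4.58%) in 129S1/SvImJ. Drd2+ neurons had 1415 of 12799 (11.1%; 857 higher, 6.7%, and 558 lower, 4.36%), and oligodendrocytes had 662 of 9082 (7.29%; 452 higher, 4.98%, and 210 lower, 2.31%). Astrocytes had 206 of 8207 (2.51%; 151 higher, 1.84%, and 55 lower, 0.67%), and macrophages had 196 of 3858 (5.08%; 136 higher, 3.53%, and 60 lower, 1.56%). The share of higher genes among the calls varied with the setting. In this order of clusters 62.8%, 60.6%, 68.3%, 73.3% and 69.4% of the calls were higher. Against the mean of the 4 other classical strains alone, with fewer mice, the shares were 56.5%, 53.6%, 58.3%, 70.7% and 63.2%. Among calls of at least 2-fold they were 58.2%, 56.4%, 67.8%, 67.1% and 66.3%. Without the batch block they were 65.9%, 63.1%, 71.5%, 81.1% and 68.5%. What sets these shares was not tested. The median absolute log2 fold change of all called genes was 0.47 in Drd1+ neurons, which had the deepest libraries, and 1.04 in macrophages, which had the shallowest. Genes called with at least a 2-fold difference numbered 297 in Drd1+ neurons (2.21% of those tested), 250 in Drd2+ neurons (1.95%), 177 in oligodendrocytes (1.95%), 79 in astrocytes (0.963%) and 104 in macrophages (2.7%). Genes whose 4 mice of 129S1/SvImJ all lay outside the range of the other 28 were few: 26 in Drd1+ neurons (0.194% of those tested), 24 in Drd2+ neurons (0.188%), 33 in oligodendrocytes (0.363%), 9 in astrocytes (0.11%) and 9 in macrophages (0.233%). Without batch 1 the count was 1082 in Drd1+ neurons and 116 in astrocytes, and without batch 2 it was 909 in Drd2+ neurons and 129 in astrocytes. Leaving out batch 4 gave 436 in oligodendrocytes and 136 in astrocytes.

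Set against 1 strain at a time, 129S1/SvImJ had the fewest called genes against C57BL/6 and the most against PWK/PhJ and CAST/EiJ in its neurons. In Drd1+ neurons 8.37% of genes were called against C57BL/6, 9.39% against A/J, 9.84% against NOD/ShiLtJ, 11.2% against WSB/EiJ, 13.1% against NZO/HlLtJ, 27.6% against CAST/EiJ and 29% against PWK/PhJ. Drd2+ neurons gave 6.81%, 8.41%, 8.08%, 10.3%, 13.3%, 23.6% and 25.1% in the same order of strains. Oligodendrocytes gave 5.54%, 5.67%, 6.55%, 6.63%, 7.38%, 14.7% and 13.7%, and astrocytes 1.43%, 1.51%, 2.23%, 2.46%, 3.24%, 7.2% and 6.38%, with CAST/EiJ above PWK/PhJ in both. Macrophages gave 2.57% against A/J, 2.93% against NOD/ShiLtJ, 3.78% against C57BL/6, 4.04% against NZO/HlLtJ, 5.21% against WSB/EiJ, 8.97% against CAST/EiJ and 11.2% against PWK/PhJ. WSB/EiJ, although wild-derived, stood in the range of the laboratory strains in every cluster but macrophages. In Drd1+ neurons 589 genes were higher and 672 lower in 129S1/SvImJ against A/J, 566 and 558 against C57BL/6, and 663 and 658 against NOD/ShiLtJ. The counts were 911 and 849 against NZO/HlLtJ, 798 and 707 against WSB/EiJ, 1931 and 1780 against CAST/EiJ and 2109 and 1780 against PWK/PhJ. These 7 comparisons share the same 129S1/SvImJ mice, and the differences between them were not tested.

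**Figure D1:**
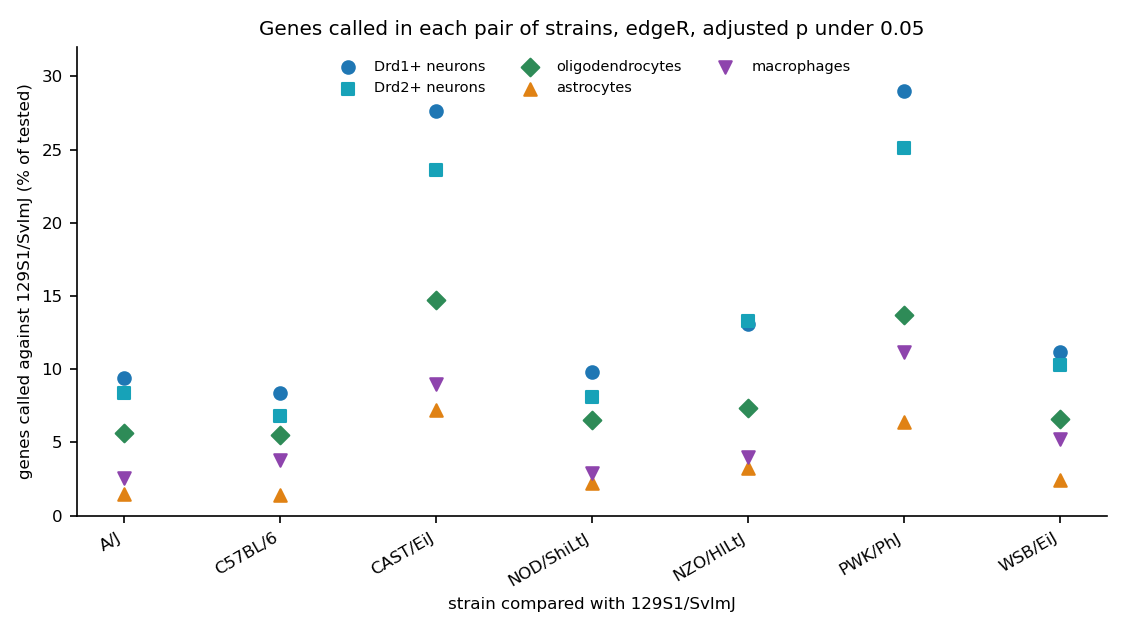
Percent of tested genes that differed between 129S1/SvImJ and each other strain (y axis, adjusted p under 0.05) by strain on the x axis, with 1 marker for each of the 5 clusters. CAST/EiJ and PWK/PhJ stand above the other 5 strains in every cluster, with 27.6% and 29% in Drd1+ neurons.

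A gene known for astrocytes, Slc1a3, rose in 129S1/SvImJ macrophages, with all 4 mice above the other 28. The gene (GLAST; chr15:8634124-8710807), whose product imports glutamate, was at 3892, 5862, 5674 and 5759 CPM in the macrophages of the 4 129S1/SvImJ mice, in batch order. In the other 28 mice it ran from 128 to 746 CPM with a median of 345. The groups were far apart: the lowest 129S1/SvImJ mouse was several times above the highest of any other strain. The mean was 5297 ± 939.6 against 382 ± 148 CPM (log2 fold change 3.85, SE 0.12, edgeR adjusted p = 8.66e-24). In astrocytes, its usual site, Slc1a3 was at 1989 CPM in 129S1/SvImJ and 2163 in the others and was not called, nor was it in Drd1+ neurons (14.1 against 15.4 CPM), Drd2+ neurons (17.6 against 17.4) or oligodendrocytes (212 against 218). The macrophage effect exceeded that in Drd1+ neurons by 4.02 log2 units (SE 0.19, edgeR adjusted p = 1.68e-90). Of 14489 genes tested for such a difference between macrophages and Drd1+ neurons, 147 passed (1.01%), and 88, 92, 87 or 66 did without batch 1, 2, 3 or 4.

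Slc1a3 was found in nearly all 129S1/SvImJ macrophage nuclei. At least 1 UMI was present in 295 of the 320 nuclei, 92.4% ± 3.79 per mouse, with mice from 89.0% to 97.1%. In the other strains 708 of 2318 macrophage nuclei had a UMI, 30.2% ± 8.17 per mouse, and no mouse exceeded 45.2%. Median depth was slightly higher in 129S1/SvImJ, at 1522 UMIs per nucleus against 1414.5 in the others. With each nucleus thinned to 1000 UMIs, which kept 270 of 320 and 1989 of 2318 nuclei, the shares were 88.3% and 22.9%. Oligodendrocyte nuclei, at a median of 1697 and 1634 UMIs, carried a UMI of Slc1a3 in 26.0% of 129S1/SvImJ nuclei and 25.5% of others, and Drd1+ neurons in 8.33% and 8.92%. At full depth the share in the other strains was 30.2% in macrophages and 25.5% in oligodendrocytes, and what gives rise to either was not tested. No single nucleus held more than 1.32% of the Slc1a3 counts in 129S1/SvImJ macrophages, and the median among nuclei with a UMI was 6.

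No shift of the other astrocyte markers passed the test. The 8 markers summed to 5150.0 CPM in 129S1/SvImJ macrophages and 978 in the others (exact permutation test, two-sided, p = 0.000244, the smallest that 4096 arrangements can give, adjusted p = 0.0134). Without Slc1a3 the sums were 861 CPM, ranging from 382 to 1551 over mice, against 669, ranging from 220 to 1716 (exact permutation p = 0.185, adjusted p = 0.461). In pooled nuclei Slc1a2 was at 530 CPM in 129S1/SvImJ macrophages and 481 CPM in macrophages of all 8 strains, Gpc5 at 128.5 and 85.5, Gja1 at 38.1 and 49.6, and Aqp4 at 24.1 and 25.3. Oligodendrocyte markers summed to 4348 CPM in 129S1/SvImJ macrophages and 4841 in the others. Fibroblast markers summed to 204 against 44.8 CPM, which did not pass adjustment (exact permutation p = 0.00391, adjusted p = 0.107). Of that sum Ranbp3l made up most, at 188.7 CPM in pooled 129S1/SvImJ macrophages and 47.4 over all strains, while Col1a2 and Bmp6 were at 0 and Dcn at 2.01 CPM in 129S1/SvImJ. Free RNA in the mixed preparations, the genotype-based assignment and alignment of a 129S1/SvImJ library to a C57BL/6-based genome were not tested as sources of any difference in these data.

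**Figure D2:**
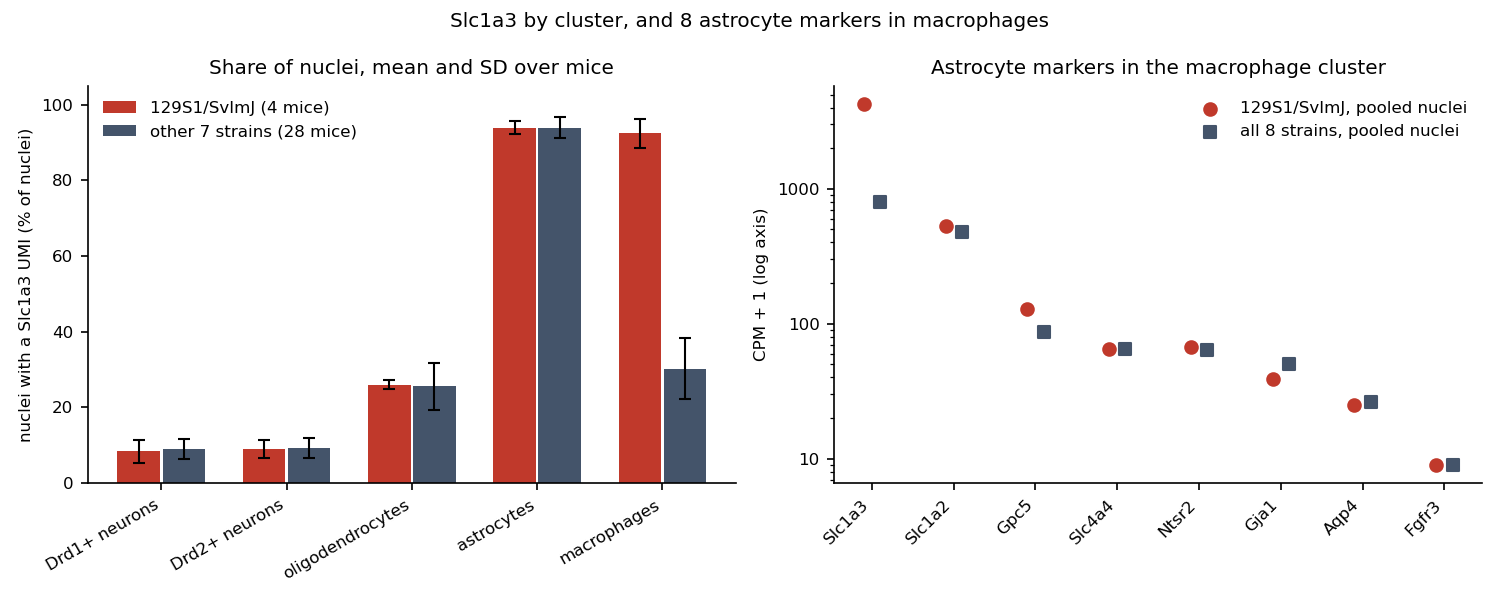
Left, percent of nuclei with at least 1 UMI of Slc1a3 in each cluster (bars, mean over mice; error bars, SD; 4 mice of 129S1/SvImJ and 28 of the other strains). Right, CPM of 8 astrocyte markers in macrophages, pooled over nuclei, on a log axis after adding 1, for 129S1/SvImJ and all 8 strains. In macrophages 92.4% of 129S1/SvImJ nuclei and 30.2% of the others had a UMI of Slc1a3. Its pooled level (CPM of all counts) was 4249 against 799.8 over all 8 strains, 129S1/SvImJ included.

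Dlgap1 and Colec12 rose beside Slc1a3 in 129S1/SvImJ macrophages. Dlgap1, a scaffold of the postsynaptic density (chr17:69969073-70821413), was at 1822, 1779, 2328 and 1857 CPM in the 4 mice, against 32.4 to 618 CPM (median 96.97) in the others. The groups did not overlap, and NZO/HlLtJ was the nearest strain with a mean of 508 CPM (log2 fold change 3.95, SE 0.13, edgeR adjusted p = 1.66e-47). A UMI of Dlgap1 was present in 80.5% of 129S1/SvImJ macrophage nuclei and 12.7% of the others, against 8.03% and 7.20% of oligodendrocyte nuclei. In Drd1+ neurons, which use the gene at synapses, it was at 647 against 584 CPM, a log2 fold change of 0.17 (edgeR adjusted p = 0.0433). Colec12, a scavenger receptor of the collectin family, was at 302, 589.5, 230.4 and 265 CPM against 0 to 115 CPM (median 8.29) in the others (log2 fold change 4.56, SE 0.35, edgeR adjusted p = 2.83e-17), again without overlap. It was higher in 129S1/SvImJ astrocytes too (48.4 against 21.7 CPM, log2 fold change 1.33) and lower in Drd1+ and Drd2+ neurons (log2 fold changes -1.17 and -1.57), where the 129S1/SvImJ libraries held 17 and 14 counts in all. Gm3453 and Gm3248, predicted genes with near-identical copies among which reads can be split, were at 148 against 5.08 and 200.2 against 25.8 CPM, and neither overlapped.

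Prkd1 was higher in 129S1/SvImJ macrophages than in the mean of strains and was high in PWK/PhJ as well. Prkd1, the protein kinase D1 (chr12:50341226-50649271), was at 969, 360.3, 739.6 and 1112 CPM in 129S1/SvImJ, and the other mice ran from 0 to 950.0 with a median of 15.02. PWK/PhJ averaged 836 CPM and CAST/EiJ 192, while the other 5 strains lay between 9.005 and 18.7, so the overlap came from PWK/PhJ and CAST/EiJ (log2 fold change 4.39, SE 0.30, edgeR adjusted p = 1.93e-11). In oligodendrocytes the same gene was lower in 129S1/SvImJ, at 13.9 against 59.2 CPM (log2 fold change -1.96, edgeR adjusted p = 4.52e-12), and it was not called in either neuron cluster or astrocytes. Prex1, an activator of the GTPase Rac (chr2:166566345-166713832), was at 809, 895, 909 and 753 CPM in macrophages against 211 to 578 CPM (median 390.0), without overlap (log2 fold change 1.06, SE 0.13, edgeR adjusted p = 1.92e-10). Oprm1, the mu opioid receptor, was at 169, 164, 242 and 154 CPM against 10.1 to 155 CPM (median 61.2), where the lowest 129S1/SvImJ mouse lay just under the highest other (log2 fold change 1.65, SE 0.25, edgeR adjusted p = 2.24e-07).

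Serinc3, Epb41l2 and Fhit fell in 129S1/SvImJ macrophages. Serinc3, a membrane protein that can restrict retroviruses (chr2:163623273-163645149), was at 187, 251, 267 and 179.7 CPM, against 257 to 2174 CPM (median 1246). PWK/PhJ, at 307 CPM, was the strain that met the 129S1/SvImJ range, and the other 6 lay between 1069.8 and 1629 (log2 fold change -2.31, SE 0.16, edgeR adjusted p = 1.08e-22). In Drd1+ neurons Serinc3 was slightly higher in 129S1/SvImJ, at 76.4 against 66.8 CPM (log2 fold change 0.20), and the 2 effects differed by -2.46 log2 units (SE 0.21, edgeR adjusted p = 3.43e-27). Epb41l2, which links membranes to the cytoskeleton, was at 1191, 917, 1055 and 1147 CPM against 1484 to 2514 CPM (median 1959), with every 129S1/SvImJ mouse below the rest (log2 fold change -0.87, SE 0.10, edgeR adjusted p = 1.93e-11), and was not called in the other 4 clusters. Zfp69, a zinc finger gene, had 6 counts over the 4 mice and 26.7, 10.9, 24.2 and 0 CPM, against 31.1 to 243 CPM (median 97.1) (log2 fold change -2.76).

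**Figure D3:**
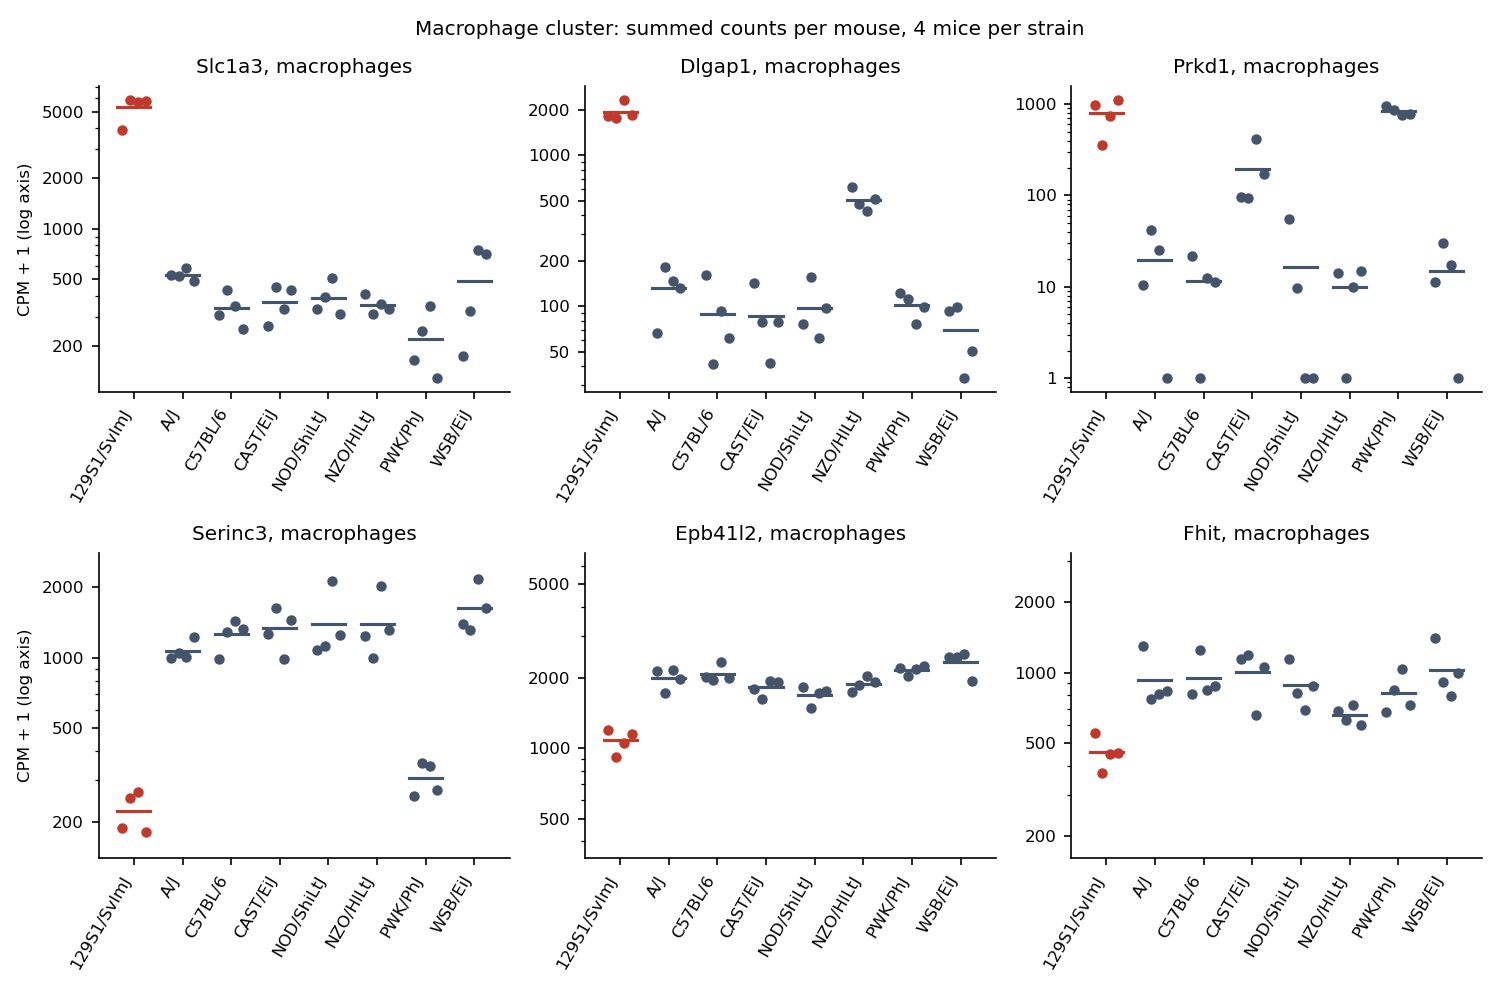
CPM of 6 genes in macrophages (y axis, log scale after adding 1) by strain on the x axis; points are the 4 mice of a strain in batch order, lines are strain means, and 129S1/SvImJ is in red. All 4 mice of 129S1/SvImJ lie above the rest for Slc1a3 and Dlgap1, with NZO/HlLtJ next for Dlgap1 at 508 CPM. Prkd1 is also high in PWK/PhJ, and Serinc3 is low in 129S1/SvImJ and PWK/PhJ.

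A total of 3 microglial genes were called in 129S1/SvImJ macrophages. Of 29 microglial function genes tested, 1 was higher and 2 were lower (10.3%, median log2 fold change -0.07, against 5.08% and 0.01 over all genes tested). Ly86, partner of the receptor CD180, was at 969, 1026, 1152 and 1164 CPM against 854 to 2774 CPM (median 1521), overlapping the low end of the others (log2 fold change -0.48, SE 0.11, edgeR adjusted p = 7.22e-04). Fcrls, a microglial receptor-like gene, was at 28.2 CPM in 129S1/SvImJ against a mean of 269.6, but strains ranged from 6.54 in PWK/PhJ to 905 in CAST/EiJ (log2 fold change -1.57). Selplg, a selectin ligand, was higher with a log2 fold change of 0.35. None of 8 antigen presentation genes was called in macrophages by edgeR, and 1 had an unadjusted p under 0.05.

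The promoters of 4 of these genes are shown because their RNA differed in 129S1/SvImJ macrophages or oligodendrocytes, although Serinc3 was low in PWK/PhJ macrophages too. Each is the 250 bases before the RefSeq start on build GRCm38.p6, written 5′ to 3′ on the strand of the gene, and it is the reference sequence, not that of 129S1/SvImJ. Capitals mark the ETS core GGAAGT, the SOX core ACAAAG, the PU.1 motif GAGGAAGT, which holds the ETS core, and the TATA motif TATAAA on either strand, which occur in 19.7%, 16.5%, 2.44% and 12.4% of all 32851 windows of this length. A deposited peak of open chromatin, called over all nuclei, overlapped 53.1% of all RefSeq promoter entries. These entries reach past the start, beyond the 250 bases, so that share is not the share of windows of this length. A peak overlapped the window of Serinc3 (chr2:163645144-163645393, minus strand) but not those of Slc1a3 (chr15:8710808-8711057, minus strand), Dlgap1 (chr17:69968823-69969072, plus strand) and Sema3d (chr5:12382916-12383165, plus strand). RefSeq gives Dlgap1 a second start, whose window (chr17:70561497-70561746, plus strand) held none of the 4 motifs and was overlapped by a peak; the window of the first start is printed. Slc1a3 held 1 TATA motif, the first window of Dlgap1 2 ETS cores, Sema3d 2 SOX cores, and Serinc3 none of the 4 motifs.
Slc1a3: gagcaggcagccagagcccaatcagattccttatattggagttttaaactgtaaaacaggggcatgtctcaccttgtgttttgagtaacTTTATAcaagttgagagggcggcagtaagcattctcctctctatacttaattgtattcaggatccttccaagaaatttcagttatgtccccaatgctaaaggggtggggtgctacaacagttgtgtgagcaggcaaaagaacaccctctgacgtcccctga
Dlgap1: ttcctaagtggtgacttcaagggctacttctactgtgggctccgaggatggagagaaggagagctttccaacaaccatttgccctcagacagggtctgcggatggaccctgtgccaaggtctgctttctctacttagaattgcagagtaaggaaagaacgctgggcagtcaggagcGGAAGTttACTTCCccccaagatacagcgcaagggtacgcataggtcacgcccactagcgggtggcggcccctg
Serinc3: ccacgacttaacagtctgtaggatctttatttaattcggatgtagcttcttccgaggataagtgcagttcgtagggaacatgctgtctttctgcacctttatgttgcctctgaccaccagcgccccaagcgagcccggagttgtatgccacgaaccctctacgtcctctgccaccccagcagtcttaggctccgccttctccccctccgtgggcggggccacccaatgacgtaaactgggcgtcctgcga
Sema3d: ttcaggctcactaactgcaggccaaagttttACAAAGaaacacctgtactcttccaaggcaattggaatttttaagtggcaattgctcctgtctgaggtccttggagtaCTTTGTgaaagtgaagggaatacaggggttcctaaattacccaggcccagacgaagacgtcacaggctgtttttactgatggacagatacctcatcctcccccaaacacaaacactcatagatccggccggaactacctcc

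Oligodendrocytes held the most genes that set all 4 129S1/SvImJ mice apart, 24 above and 9 below the other 28. Zfp804b, a zinc finger gene (chr5:6769030-7344378), was at 2468, 2474, 2628 and 3657 CPM, against 0 to 2115 CPM (median 26.2). WSB/EiJ and NZO/HlLtJ were high as well, with means of 1574 and 1306 CPM, and the other 5 strains were at 88.8 or less (log2 fold change 6.09, SE 0.24, edgeR adjusted p = 7.58e-15). A UMI was present in 53.8% of 129S1/SvImJ oligodendrocyte nuclei and 13.2% of the others, and in 1.50% and 2.80% of Drd1+ neurons. Sema3d, a secreted guidance protein (chr5:12383161-12588953), was at 123, 149, 148 and 167 CPM against 0 to 66.8 CPM (median 19.98), with no strain mean above 45.1 (log2 fold change 2.93, SE 0.15, edgeR adjusted p = 9.30e-30). Its UMIs were in 19.5% of 129S1/SvImJ nuclei and 2.92% of the others. Serpina3n, a protease inhibitor from a family of close copies that is induced in reactive glia, was at 18.2, 29.7, 25.6 and 26.2 CPM against 0 to 7.09 CPM (median 1.78) (log2 fold change 3.55, SE 0.36, edgeR adjusted p = 9.23e-14). Slc15a2, a peptide transporter, and Clgn, a chaperone, also lay above all other mice, at 45.02 against 7.79 and 33.4 against 6.77 CPM.

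Tmem163 was nearly missing from 129S1/SvImJ oligodendrocytes. Tmem163, a zinc transporter (chr1:127490342-127678021), gave 7 counts in the 4 libraries together, 3.41, 0, 5.11 and 1.14 CPM, whereas the other 28 mice ran from 49.9 to 133 with a median of 85.2. All 7 strains averaged between 71.5 and 111 CPM, so that 129S1/SvImJ alone was low (log2 fold change -5.01, SE 0.30, edgeR adjusted p = 7.43e-27). A UMI was seen in 0.390% of 129S1/SvImJ oligodendrocyte nuclei and 10.7% of the others, and Drd1+ neurons, which carry little of it, gave 0.430% and 0.596%. Cercam was at 9.09, 7.43, 5.11 and 10.3 CPM against 18.9 to 103 CPM (median 51.5) (log2 fold change -2.54, SE 0.24, edgeR adjusted p = 3.78e-15). Dixdc1, a protein of Wnt signalling, was at 94.3, 134, 101 and 106 CPM against 173 to 359 CPM (median 264), without overlap (log2 fold change -1.28, SE 0.10, edgeR adjusted p = 3.98e-19). Fscn1, which bundles actin, was at 22.7 against 62.3 CPM, again with all 4 mice below the rest. Zfp839 was at 4.79 against 13.3 CPM (log2 fold change -1.40), and its call was lost without batch 4.

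**Figure D4:**
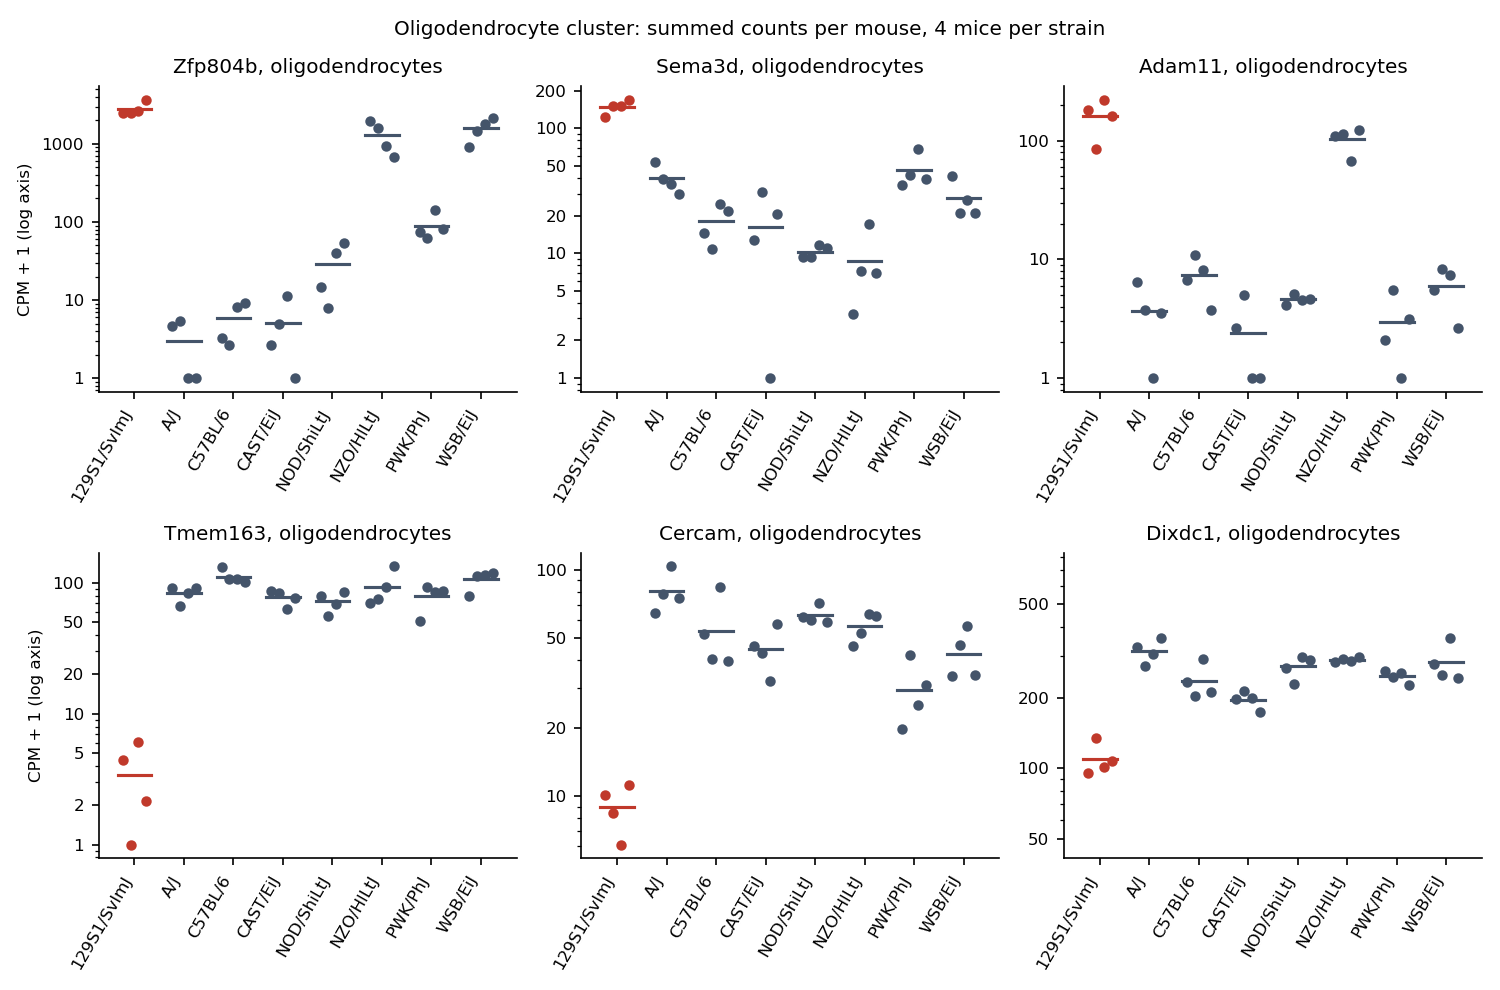
CPM of 6 genes in oligodendrocytes (y axis, log scale after adding 1) by strain on the x axis; points are the 4 mice of a strain in batch order, lines are strain means, and 129S1/SvImJ is in red. Sema3d is highest and Tmem163 lowest in 129S1/SvImJ, while Zfp804b is also high in NZO/HlLtJ and WSB/EiJ and Adam11 in NZO/HlLtJ.

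Adam11, Cntn3, Ppp1cc, Spock1 and Tenm2 were higher in 129S1/SvImJ oligodendrocytes and, by a test of the difference, not to the same extent in Drd1+ neurons. Of 13943 genes, 314 differed in the 129S1/SvImJ effect between these clusters (2.25%), with 184 without batch 1 and 175 without batch 4. Adam11, an ADAM family member without protease activity, was at 181, 84.2, 219.8 and 162 CPM in 129S1/SvImJ oligodendrocytes. NZO/HlLtJ averaged 102 and overlapped, and the other 6 strains were at 6.35 or less (log2 fold change 4.90, SE 0.18, edgeR adjusted p = 1.09e-37). The effect exceeded that in Drd1+ neurons by 4.74 log2 units (SE 0.24, edgeR adjusted p = 9.62e-29). Cntn3, a contactin, fell into high and low strains: 129S1/SvImJ had 306 CPM, A/J 331, C57BL/6 273 and WSB/EiJ 196, and the other 4 had 10.8 or less. Ppp1cc, a catalytic subunit of protein phosphatase 1, did the same, at 407 CPM in 129S1/SvImJ, 282 in NOD/ShiLtJ, 228 in C57BL/6 and 224 in WSB/EiJ but 46.6 or less in the other 4. Spock1, a proteoglycan, was higher than the mean of strains in 129S1/SvImJ (769 CPM, log2 fold change 1.96) but below PWK/PhJ, at 2256, with CAST/EiJ and WSB/EiJ near 10.9 and 9.26. Tenm2, a teneurin of synaptic adhesion (chr11:36006656-37237053), was at 1245, 1184, 1239 and 1373 CPM in 129S1/SvImJ oligodendrocytes against 84.4 to 919 CPM (median 476), without overlap (log2 fold change 1.74, SE 0.07, edgeR adjusted p = 2.49e-30). In neurons it was lower in 129S1/SvImJ, at 2949 against 3560.4 CPM in Drd1+ and 2404 against 3061 CPM in Drd2+ neurons (log2 fold changes -0.26 and -0.33, edgeR adjusted p = 0.0382 and 0.0111).

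Matrix and glutamate receptor genes were among those higher in 129S1/SvImJ oligodendrocytes. Of 8 matrix genes tested, 3 were higher and 1 lower, and of 16 glutamate receptor genes 4 were higher and none lower; 7.29% of all genes were called. Lama2, the laminin alpha-2 chain, was at 678, 599, 700.4 and 671 CPM against 0 to 550.4 CPM (median 337). CAST/EiJ was nearly without it, at 2.63 CPM, and the other 6 strains lay between 309 and 519, all below 129S1/SvImJ (log2 fold change 1.77, SE 0.08, edgeR adjusted p = 1.82e-35). The neighbouring collagen IV genes Col4a1 and Col4a2 were higher (log2 fold changes 1.71 and 2.66), though WSB/EiJ averaged 34.9 CPM of Col4a2 against 30.3 in 129S1/SvImJ, and Col27a1 was lower (-1.18). Grik1, a kainate receptor subunit, was at 745, 703, 653 and 834 CPM against 69.2 to 681 CPM (median 205), and PWK/PhJ, at 618, was the strain that overlapped (log2 fold change 1.68, SE 0.10, edgeR adjusted p = 5.45e-14). The other 3, Grik2, Grm3 and Gria2, rose by 0.38, 0.32 and 0.33 log2 units. Of 23 myelin genes, 3 were higher and none lower: Car2, a carbonic anhydrase (log2 fold change 0.37), Nkx6-2, a transcription factor of maturing oligodendrocytes (0.57), and Ermn (0.24). The median of the 23 was 0.04, against 0.01 over all genes. Pde4d, a cAMP phosphodiesterase, was lower at 305 against 858 CPM, within strain means that ran from 199 in C57BL/6 to 1682 in PWK/PhJ.

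In astrocytes the noncoding RNA 2900052N01Rik, Prex1 and Cadm1 rose in 129S1/SvImJ. 2900052N01Rik, a long noncoding RNA (chr9:46913603-46927366), was at 259, 339, 318 and 201 CPM against 47.8 to 140.5 CPM (median 88.2) (log2 fold change 1.59, SE 0.14, edgeR adjusted p = 1.62e-16). Cadm1, a cell adhesion protein whose gene lies on the same chromosome (chr9:47530170-47862280), was at 2753, 3379, 2690.0 and 2688 CPM against 1245 to 2161 CPM (median 1647) (log2 fold change 0.81, SE 0.08, edgeR adjusted p = 2.85e-13). Both sets of 4 mice lay above all others. Prex1, which was also high in 129S1/SvImJ macrophages, was at 363, 379, 576 and 307 CPM in astrocytes against 94.7 to 197 CPM (median 143) (log2 fold change 1.44, SE 0.12, edgeR adjusted p = 4.03e-18). Its UMIs were in 52.4% of 129S1/SvImJ astrocyte nuclei and 24.4% of the others, or 29.1% and 12.0% at 1000 UMIs per nucleus. In Drd2+ neurons Prex1 was higher by 0.62 log2 units, and in Drd1+ neurons and oligodendrocytes it was not called. Nrxn3, a presynaptic adhesion protein, was at 787 against 336 CPM and Khdrbs1, an RNA-binding protein, at 148 against 92.9, both without overlap (edgeR adjusted p = 3.01e-04 and 0.00195). Egfem1 was at 430.3, 334, 266 and 371 CPM, and CAST/EiJ and PWK/PhJ, at 312 and 268, overlapped (log2 fold change 1.85, SE 0.13, edgeR adjusted p = 7.58e-19).

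Sugct, Trim24, Ston2 and Cfap69 fell in 129S1/SvImJ astrocytes. Sugct, a mitochondrial transferase of glutarate breakdown, was at 74.6, 26.7, 73.9 and 79.1 CPM against 84.5 to 299 CPM (median 189.8) (log2 fold change -1.49, SE 0.18, edgeR adjusted p = 3.10e-10). Trim24, a transcriptional cofactor, was at 37.3, 31.2, 29.6 and 36.5 CPM against 42.8 to 148 CPM (median 73.7) (log2 fold change -1.17, SE 0.24, edgeR adjusted p = 5.45e-04). Ston2, an endocytic adaptor, was at 139, 143, 0 and 195 CPM against 216 to 465 CPM (median 277) (log2 fold change -1.08), and its call was lost without batch 1 or batch 2, against the 4 classical strains alone (-0.96) and in thinned libraries (-0.84). Cfap69, a protein of cilia, rested on 8 counts in 129S1/SvImJ and lost its call without batch 1. None of 25 astrocyte function genes was called by edgeR (1 had an unadjusted p under 0.05), among them Slc1a3, Slc1a2, Aqp4 and Gja1, and their median log2 fold change was -0.05. Among 15 glutamate receptor genes 3 were higher (Gria2, Grin2c and Grik2, by 0.38, 0.46 and 0.35 log2 units), among 7 GABA receptor genes 1 (Gabrb1, 0.42), and among 16 matrix genes 2 (Lama2, 0.88, and Hapln1, 0.50), where 2.51% of all genes were called.

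In 129S1/SvImJ neurons Tmem181a, Col5a2 and Stard13 were higher in both the Drd1+ and the Drd2+ cluster. The other genes of this paragraph are given for 1 neuron cluster only. Lrch1, a leucine-rich repeat protein, was at 161, 162, 135 and 161 CPM in Drd1+ neurons against 33.5 to 129 CPM (median 81.4) (log2 fold change 1.09, SE 0.06, edgeR adjusted p = 6.99e-18). Uggt2, which senses misfolded glycoproteins, was at 219.6, 215, 177 and 221 CPM against 82.4 to 147 CPM (median 103) (log2 fold change 0.94, SE 0.05, edgeR adjusted p = 7.65e-18). Tmem181a (chr17:6256726-6308314) was at 197, 205, 258 and 204 CPM in Drd1+ neurons, above every other mouse. Its log2 fold change of 1.54 became 0.79 against the 4 classical strains alone, with WSB/EiJ and PWK/PhJ low at 21.7 and 32.4 CPM. In Drd2+ neurons the log2 fold change was 1.62, or 0.86 against the 4 classical strains, again with all 4 mice above the rest. Col5a2, a fibrillar collagen chain, was at 17.1, 23.8, 19.00 and 13.8 CPM in Drd1+ and 18.7, 25.6, 25.8 and 12.4 in Drd2+ neurons, where no other mouse exceeded 10.6 and 11.4. Astrocytes of 129S1/SvImJ did not share this, at 11.9 against 30.5 CPM, and the effects in the 2 clusters differed by -4.23 log2 units (SE 0.48, edgeR adjusted p = 1.30e-08). Gpx6, a glutathione peroxidase, was at 12.6 against 1.63 CPM in Drd1+ neurons, and Strn4 and Bbof1 lay above all other mice by smaller steps (log2 fold changes 0.56 and 0.47). Gm35082, a long noncoding RNA, was at 7.23, 13.7, 17.8 and 10.1 CPM in Drd2+ neurons against a highest value of 2.72 in the others (log2 fold change 5.92, SE 0.37, edgeR adjusted p = 4.39e-16). Stard13 was at 25.7 against 6.48 CPM in Drd1+ and 27.3 against 8.85 in Drd2+ neurons (log2 fold changes 2.02 and 1.78), but not called in astrocytes or oligodendrocytes.

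Cntnap5c, Ryr1, Ralyl and Svil fell in 129S1/SvImJ neurons. Cntnap5c, of the contactin-associated family, was at 34.6, 45.4, 41.6 and 43.7 CPM in Drd1+ neurons against 47.2 to 498 CPM (median 173), and NOD/ShiLtJ, at 52.1, lay just above 129S1/SvImJ (log2 fold change -2.13, SE 0.12, edgeR adjusted p = 7.65e-14). Ryr1, a calcium release channel (chr7:29003340-29125179), was at 30.1, 22.6, 24.1 and 31.6 CPM in Drd1+ neurons against 44.3 to 107 CPM (median 62.04), and at 14.5, 11.97, 13.5 and 12.4 in Drd2+ neurons against 21.9 to 74.8 CPM (median 40.5). In both clusters all 4 mice lay below the other 28 (log2 fold changes -1.26 and -1.64, edgeR adjusted p = 6.11e-15 and 3.35e-15). Ralyl, an RNA-binding protein, was likewise lowest in both, by -1.12 and -1.39 log2 units. Svil, an actin-binding protein, was at 12.3 against 46.5 CPM in Drd1+ and 17.3 against 52.3 in Drd2+ neurons, without overlap. In oligodendrocytes Svil was higher in 129S1/SvImJ than the mean of strains, at 23.9 against 15.6 CPM (edgeR adjusted p = 0.00566), but within the range of the others. Snhg3, Gpr180 and Dcdc2a in Drd1+ neurons and Slc30a10, a manganese exporter, in Drd2+ neurons also lay below all other mice (log2 fold changes -1.40, -1.31, -1.59 and -1.36). Osbpl1a fell by 1.60 log2 units in Drd1+ and by 1.92 in Drd2+ neurons, with PWK/PhJ and WSB/EiJ the next lowest strains.

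**Figure D5:**
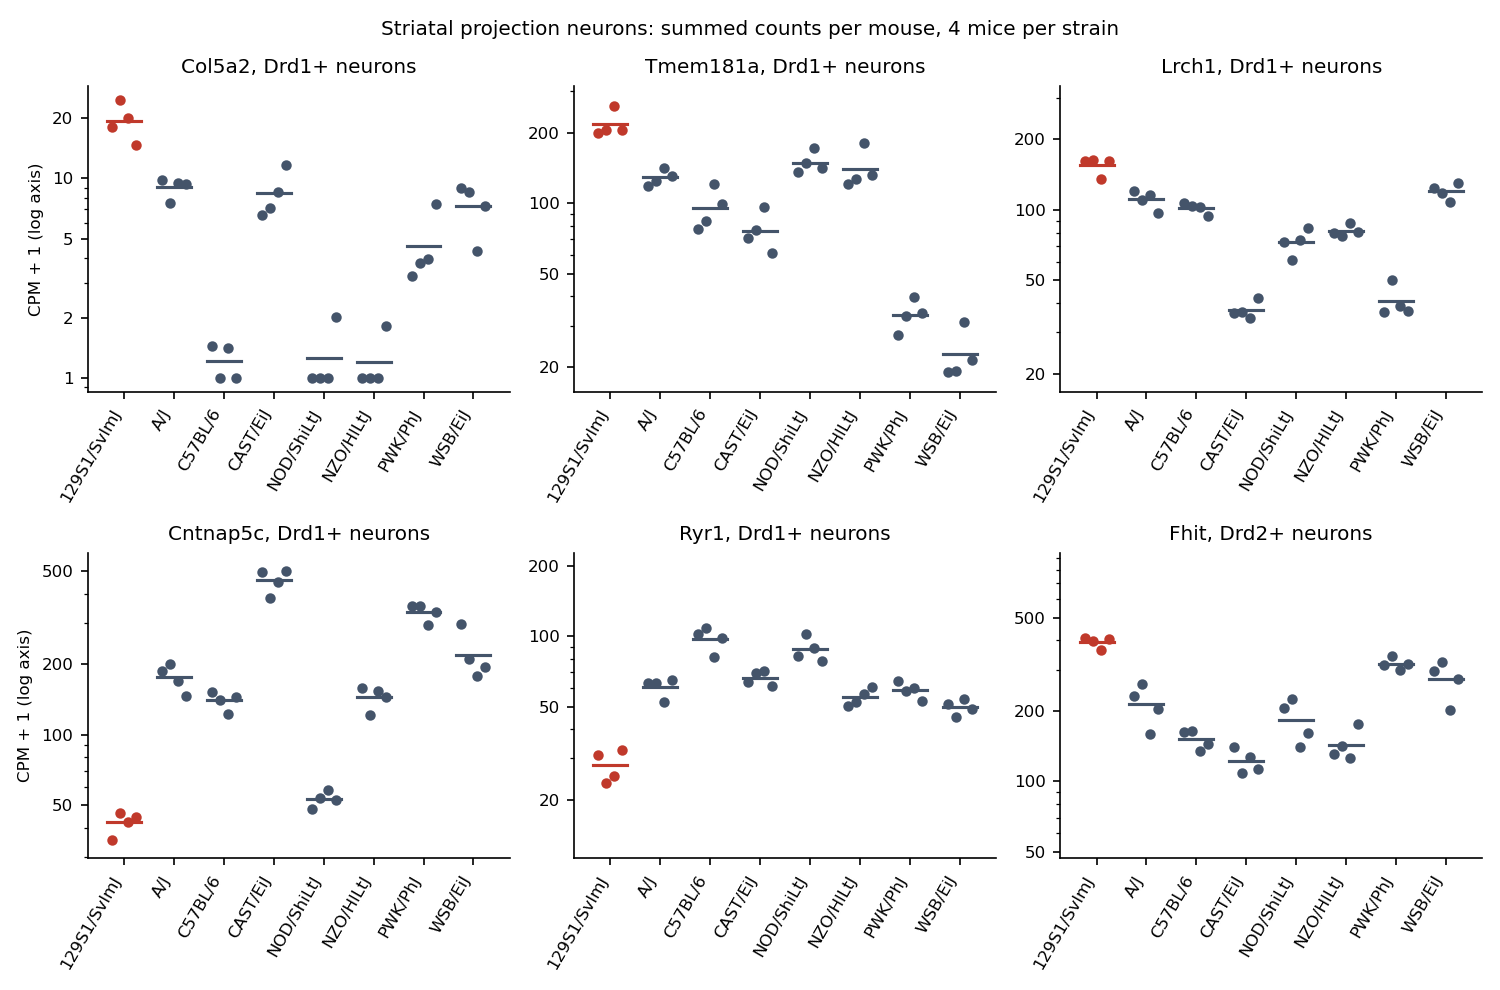
CPM of 5 genes in Drd1+ neurons and of Fhit in Drd2+ neurons (y axis, log scale after adding 1) by strain on the x axis; points are the 4 mice of a strain in batch order, lines are strain means, and 129S1/SvImJ is in red. The 4 mice of 129S1/SvImJ lie above all others for Col5a2, Tmem181a, Lrch1 and Fhit and below them for Cntnap5c and Ryr1.

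Fhit moved in opposite directions in neurons and macrophages of 129S1/SvImJ. The gene encodes a dinucleotide hydrolase and spans a fragile site (chr14:9550092-11162061). In Drd2+ neurons it was at 408, 397, 362 and 405 CPM against 108 to 341 CPM (median 169), above all others, and in Drd1+ neurons at 451, 473, 385 and 478 CPM against 139 to 396 CPM (median 204), where 1 mouse overlapped (log2 fold changes 1.06 and 1.00, edgeR adjusted p = 1.05e-13 and 7.41e-14). In macrophages it was at 551, 371, 449 and 453 CPM against 595 to 1406 CPM (median 837), below all others (log2 fold change -0.95, SE 0.14, edgeR adjusted p = 1.66e-07). Oligodendrocytes were slightly higher (0.44), with NZO/HlLtJ and WSB/EiJ far above 129S1/SvImJ at 322 and 296 CPM, and astrocytes were not called (0.35). The effect in macrophages was lower than that in Drd1+ neurons by 1.91 log2 units (SE 0.19, edgeR adjusted p = 5.44e-20); the gene was chosen for this after its values were seen.

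Drd1+ and Drd2+ neurons differed in the 129S1/SvImJ effect at 52 of 13791 genes (0.377%), and at 31 without batch 2. Dscaml1, an adhesion protein, was higher in 129S1/SvImJ Drd1+ neurons (134, 184, 118 and 159.6 CPM against 37.8 to 149 CPM (median 97.1)) and was not called in Drd2+ neurons (180.1 against 161 CPM), a difference of -0.51 log2 units (SE 0.06, edgeR adjusted p = 2.70e-09). Sfxn1, a mitochondrial serine transporter, was higher in Drd1+ neurons (86.1 against 71.1 CPM) and lower in Drd2+ neurons (14.2 against 21.04; difference -0.89, SE 0.14, edgeR adjusted p = 6.31e-06). Sfxn1 is 1 of the 8 Drd1+ neuron markers, whose sum in Drd2+ neurons was 81.6 CPM (72.7 to 88.1 over mice) in 129S1/SvImJ and 103.9 (78.6 to 155.0) in the others (exact permutation test, two-sided, p = 0.00635, adjusted p = 0.116). The part of this sum in the Sfxn1 difference was not tested. The gene Drd1, next to Sfxn1, was at 178, 166, 215 and 204 CPM in Drd1+ neurons of 129S1/SvImJ against 167 to 340.3 CPM (median 225) (log2 fold change -0.26, SE 0.06, edgeR adjusted p = 0.00106). Gm20754, a long noncoding RNA, was more strongly raised in Drd2+ than in Drd1+ neurons (log2 fold changes 0.79 and 0.31), as was Epha6, an ephrin receptor (0.47 and 0.26). Without the mouse as a block, which pairs the clusters of 1 animal, the count was 1, and Dscaml1, Gm20754, Egfem1 and Epha6 lost their calls.

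Members of the signalling lists were called in both directions in 129S1/SvImJ neurons. Of 24 dopamine and cAMP signalling genes, 2 were higher and 2 lower in Drd1+ neurons (16.7%, against 12.3% of all genes), and 3 were higher and 2 lower in Drd2+ neurons (20.8% against 11.1%). In Drd1+ neurons Rasgrp2 and Ppp1r1b, which encodes the phosphatase inhibitor DARPP-32, rose by 0.21 and 0.19 log2 units, and Pde4b fell, with a log2 fold change of -0.42. In Drd2+ neurons Rgs9 and Adcy5, the main adenylyl cyclase of the striatum, rose by 0.20 and 0.19, and the receptor Gpr6 was lower (-0.28). Among 20 glutamate receptor genes 4 were higher and 1 lower in Drd1+ neurons and 5 higher and 1 lower in Drd2+ neurons, with Gria4 lower in both (-0.23 and -0.49). Among 13 GABA receptor genes 1 was higher and 2 lower in Drd1+ neurons, and 3 higher and 1 lower in Drd2+ neurons. Gabrg3, higher in both (log2 fold changes 0.39 and 0.29), was at -0.067 and -0.051 against the 4 classical strains alone. Matrix genes had 3 higher and 5 lower of 19 in Drd1+ neurons (42.1%), but 1 higher and 2 lower of 19 in Drd2+ neurons (15.8%). Opioid and neuropeptide genes gave Oprm1 higher (0.36) and Penk lower (-0.34) of 10 in Drd1+ neurons and none of 11 in Drd2+ neurons, where 2 had an unadjusted p under 0.05. Penk is 1 of the 8 Drd2+ neuron markers, which were all lower in pooled Drd1+ neurons of 129S1/SvImJ than over all strains. Their sum there was 120.4 CPM (104.7 to 143.8 over mice) against 160.1 (100.01 to 266.7) in the others (exact permutation test, two-sided, p = 0.0874, adjusted p = 0.343), and its part in the Penk difference was not tested. By edgeR, none of the mitochondrially encoded genes (12 or 13 tested per cluster), the immediate early genes (2 to 13) or Xist, Tsix and 4 Y-linked markers (5 or 6) was called in any of the 5 clusters, and 0 had an unadjusted p under 0.05. None of the interferon response genes (3 to 6 tested per cluster) was called either, and 0 to 2 per cluster had an unadjusted p under 0.05. Of all genes, 12.3% and 11.1% were called in Drd1+ and Drd2+ neurons. The shares were 7.29% in oligodendrocytes, 2.51% in astrocytes and 5.08% in macrophages. With so few genes per list, 0 calls can lie near these shares. The sex-linked markers also varied within both groups, as 2 of the 4 129S1/SvImJ mice had Y-linked transcripts above 10 CPM.

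Some genes called in 129S1/SvImJ Drd1+ neurons were neighbours among the genes tested. Ordered along the chromosomes by the RefSeq table, which matched 12658 of the 13431 genes tested, 158 called genes fell into 46 runs of 3 or more neighbours. Of all genes tested in this cluster 12.3% were called, and whether the runs exceed what that share gives was not tested. Genes that were not tested or not matched were skipped, so other genes can lie between these neighbours. The longest, 6 genes at chr7:28741957-28876334, held Sars2, Nfkbib and Gm10648, which were higher in 129S1/SvImJ, and Sirt2, Hnrnpl and Ech1, which were lower. Sirt2, a deacetylase, was at 23.6, 25.9, 24.1 and 26.2 CPM against 28.7 to 41.7 CPM (median 32.6), below all 28 other mice (log2 fold change -0.41, SE 0.08, edgeR adjusted p = 4.79e-04), while Nfkbib, whose start faces that of Sirt2, was at 6.92, 8.12, 5.15 and 4.37 CPM against 2.45 to 7.22 CPM (median 4.30) (log2 fold change 0.53, edgeR adjusted p = 0.0488). Of these 6, Nfkbib lost its call without any 1 of the 4 batches, and also under RLE scaling, DESeq2, no filter on low counts or no batch block, and without A/J, C57BL/6, CAST/EiJ, NOD/ShiLtJ or NZO/HlLtJ. Sars2 lost its call without batch 1, 2 or 3, without CAST/EiJ, PWK/PhJ or WSB/EiJ, against the 4 classical strains, by DESeq2 and without the batch block. Hnrnpl and Ech1 lost theirs without batch 1, 3 or 4 and with no filter, Hnrnpl also without C57BL/6 or the batch block, and Ech1 without NZO/HlLtJ or by DESeq2. A run of 5 at chr3:105973802-106132118, Ovgp1, Pifo, Chil5, Gm42722 and Chia1, was higher throughout, but without CAST/EiJ the log2 fold changes of Pifo, Chil5 and Gm42722 were 0.04, 0.03 and 0.07, and their calls were lost. Chil5 also lost its call without batch 1, 2 or 4, by DESeq2 and without the batch block, and Pifo without batch 3 or 4. Without NZO/HlLtJ, Ovgp1 went from 1.55 to 1.00 and Chia1 from 1.39 to 0.89. A second run of 5 at chr1:128363707-130629634 held Dars, Cd55, Gm16083 and Zp3r, which were higher, and Thsd7b, which was lower. Against the 4 classical strains alone, Thsd7b went from a log2 fold change of -0.70 to -0.09, Gm16083 from 1.23 to 0.27 and Zp3r from 2.04 to 0.98, and the calls were lost. Thsd7b also lost its call without batch 1 or 3, CAST/EiJ or PWK/PhJ, and Cd55 without batch 2, 3 or 4, without NZO/HlLtJ, PWK/PhJ or WSB/EiJ (0.82 to 0.56 without WSB/EiJ), by DESeq2, with no filter and without the batch block. Where such genes overlap, as Chil5 and Gm42722 do, reads of the pair could be split between them. The promoters of Sirt2 (chr7:28766502-28766751, plus strand) and Nfkbib (chr7:28766645-28766894, minus strand) are given because they overlap head to head under a single peak, chr7:28766119-28767118. Neither held any of the 4 motifs, and both are in lower case throughout.
Sirt2: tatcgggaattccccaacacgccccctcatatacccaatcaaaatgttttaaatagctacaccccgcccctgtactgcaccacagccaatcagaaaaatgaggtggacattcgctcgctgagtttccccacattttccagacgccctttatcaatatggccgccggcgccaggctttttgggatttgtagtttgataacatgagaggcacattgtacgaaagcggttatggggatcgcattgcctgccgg
Nfkbib: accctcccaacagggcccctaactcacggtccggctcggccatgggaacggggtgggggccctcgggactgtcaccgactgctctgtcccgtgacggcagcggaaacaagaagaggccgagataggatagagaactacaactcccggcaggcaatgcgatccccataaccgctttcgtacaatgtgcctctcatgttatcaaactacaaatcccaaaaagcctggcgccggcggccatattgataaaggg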

How the data were processed

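Nuclear RNA of 32 mice, 4 of each of 8 strains, was used as 1 library per mouse and cluster. The deposited matrices hold raw counts (UMIs) per gene and nucleus, with no normalization. Per the submitters' processing notes, bcl2fastq 2.20.0.422 and Cell Ranger ARC 2.0.0 were used with builds mm10 and GRCm38; what each did is not given in the sources used here. The deposited table of nuclei holds categories (unit other): the strain called by Demuxlet from RNA and ATAC reads, the quality filter, the doublet call and the cluster name, all taken unchanged from the authors. Only nuclei with a cluster name entered, so nuclei that the authors called doublets stayed out, and no further filter was applied. The authors' peak index (other) gave peak positions only.

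Counts were filtered with filterByExpr by strain, scaled by TMM and fitted with strain and batch in edgeR 4.0.16 (R 4.3.3; robust quasi-likelihood). The contrast was 129S1/SvImJ against the mean of the log means of the other 7 strains, with Benjamini-Hochberg adjustment over all genes of a cluster and calls at an adjusted p under 0.05. Each SE is the absolute log2 fold change divided by the square root of the quasi-likelihood F. It was not estimated directly and can be too small for genes with few counts, such as Tmem163 in oligodendrocytes. Batch is a block because the labels put 1 mouse of each strain in each batch and pool them before loading. The 4 differences between a cluster and Drd1+ neurons used the mouse as a block; their filter differs, so no CPM values from them are given. DESeq2 1.42.0 served as an alternative. Shares and quality measures were compared by an exact permutation test, two-sided, within batches, in Python 3.11.15 with scipy 1.17.1. Marker sums and values of pooled nuclei are CPM of all counts, unscaled.

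Named genes were up to 10 (Drd1+ neurons) or up to 5 (other clusters) of the highest and of the lowest by log2 fold change. These were called genes of at least 10 CPM and 5 counts per library whose 4 mice lay outside the other 28. Also named were the 5 largest F of Drd1+ neurons and of each difference, called members of the gene lists, and the 3 longest runs of neighbours. Pstpip2, St8sia5, Nkiras1 and Zdhhc21 met the first rule but are not described above, and neither are all called list members. The members and gene lists were chosen with earlier results of these data known, and 1 list gene is not reported here. On simulated data with 200 genes changed 2-fold, the fit recovered 89.2% and 88.7% in Drd1+ and Drd2+ neurons. It recovered 88.6% in oligodendrocytes, 62.2% in astrocytes and 74.5% in macrophages. False calls were 6.99%, 3.35%, 4.47%, 4.76% and 3.45% of calls in the same order. The difference between macrophages and Drd1+ neurons recovered 16% of changed genes. That simulation gave all genes a single dispersion and changed only genes among the highest in macrophages. No simulation held batch effects or differences among the other 7 strains. Promoter sequences and gene positions came from RefSeq (GRCm38.p6), which matched 61 of 77 named genes with a promoter.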

Additional observations from a re-analysis of the deposited data

Results flagged for a closer look

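In groups of 4 mice, the highest or lowest 129S1/SvImJ mouse stood apart from the other 3 in 13 of 85 groups tested by Dixon's criterion, where chance gives about 1 in 20. In Drd1+ neurons these were Tmem181a at 258 CPM (batch 3, highest), Lrch1 at 135 and Uggt2 at 177 (batch 3, lowest), Dars at 52.3 (batch 2, lowest) and a median of 5155 UMIs per nucleus (batch 3, lowest). In Drd2+ neurons they were Tmem181a at 252 CPM (batch 3, highest) and Osbpl1a at 7.69 (batch 2, lowest). In oligodendrocytes Zfp804b reached 3657 CPM in batch 4. In astrocytes Cadm1 reached 3379 CPM and Sugct fell to 26.7 in batch 2, and the median UMI count was lowest in batch 3 (2113). In macrophages Dlgap1 was highest in batch 3 (2328 CPM) and Slc1a3 lowest in batch 1 (3892). Dixon's criterion took no account of batch. In all 8 strains the mouse of batch 3 had the lowest median UMIs in Drd1+ neurons and in astrocytes. In Drd1+ neurons the medians of batch 3 ran from 4803 (PWK/PhJ) to 5667 (NOD/ShiLtJ). No mouse of another batch lay below 6079.5 (PWK/PhJ, batch 4).

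The 129S1/SvImJ effect differed from that in Drd1+ neurons by a test of the difference itself for the 5 leading genes of each cluster (log2 units, other cluster minus Drd1+ neurons). In Drd2+ neurons the differences were -0.51 for Dscaml1, 0.49 for Gm20754, -0.43 for Egfem1, -0.89 for Sfxn1 and 0.22 for Epha6. Oligodendrocytes gave 3.53 for Cntn3, 4.74 for Adam11, 2.14 for Ppp1cc, 2.03 for Tenm2 and 1.99 for Spock1. Astrocytes gave 1.55 for Egfem1, -4.23 for Col5a2, 1.83 for Osbpl1a, 1.69 for 2900052N01Rik and -2.16 for Stard13. Macrophages gave 4.02 for Slc1a3, 3.84 for Dlgap1, 4.30 for Prkd1, 5.87 for Colec12 and -2.46 for Serinc3.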

How the results depend on the processing

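Of 2759 alternative values for 167 single genes and shares, 2314 kept their side of the threshold, 437 lost the call and 8 reversed. A change of direction counted as reversed only where 1 of the values was called. The share of Drd2+ neurons, not called, thus went from -0.0226 to 0.0233 log2 units without batch 3 and to 0.0226 without batch 4. Of the lost calls, 78 came from asking for an absolute log2 fold change of at least 1, where the main fit fixes the outcome. Cwc22 reversed without WSB/EiJ (log2 fold change 0.13 in oligodendrocytes, 0.043 and 0.17 in Drd1+ and Drd2+ neurons) and against the 4 classical strains in oligodendrocytes (0.045), and Gabrg3 did so against the classical strains (-0.067 in Drd1+ and -0.051 in Drd2+ neurons). With libraries thinned to 27325 counts, Adcy5 and Gria1 in Drd2+ neurons became -0.0086 and -0.18, and 27 of the 45 values that could be computed lost their calls, among them Fhit in macrophages (-0.95 to -0.66), Ston2 in astrocytes (-1.08 to -0.84), Cntnap5c in Drd1+ neurons (-2.13 to -1.52) and Ralyl in Drd1+ (-1.12 to -0.67) and Drd2+ neurons (-1.39 to -1.45). That thinning leaves far fewer genes to test and gave 11 and 16 calls in Drd1+ and Drd2+ neurons, 50 in oligodendrocytes, 17 in astrocytes and 41 in macrophages. An absolute log2 fold change of at least 1 left 297, 250, 177, 79 and 104 in the same order. Leaving out 1 batch in turn, which drops 8 mice, gave 1082 to 1294 and 909 to 1120 calls in Drd1+ and Drd2+ neurons, 436 to 579 in oligodendrocytes, 116 to 217 in astrocytes and 136 to 171 in macrophages. For the differences from Drd1+ neurons it gave 31 to 51 in Drd2+ neurons, 175 to 313 in oligodendrocytes, 78 to 122 in astrocytes and 66 to 92 in macrophages. Without the replicate block, counts were 1127, 1003, 484, 159 and 162 in the clusters, and 1, 257, 109 and 129 for the differences in Drd2+ neurons, oligodendrocytes, astrocytes and macrophages; the cause was not tested. Against the 4 classical strains alone they were 1165, 1055, 648, 174 and 136, and by DESeq2 1406, 1197, 547, 176 and 163. With no filter on low counts, 80.4% of the macrophage calls were higher in 129S1/SvImJ, against 69.4% with the filter. No cluster share was called under any alternative run. Adding nuclei that the authors removed was not run, because the cluster is given only for kept nuclei. Thinning nuclei to 1000 UMIs and summing astrocyte markers without Slc1a3 were chosen after seeing the data.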

Other observations

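Zfp804b, an oligodendrocyte gene in 129S1/SvImJ, was also counted in other clusters of that strain, at levels that varied between batches. In astrocytes it was at 4.97, 4.46, 259 and 73.1 CPM in the 4 129S1/SvImJ mice, and no other mouse exceeded 16.7. In macrophages it was at 35.5, 0, 0 and 68.5 CPM, against a highest value of 41.3 elsewhere. The gene did not pass the count filter in either cluster and was not tested there.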
